A study of Mus musculus with 9 samples.

Results

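Antibody heavy chain constant region genes and their assembly partners were examined in whole lung RNA of 9 mice. The rule took the rows of the deposited table whose gene symbol is Ighm, Ighd, Ighg3, Ighg1, Ighg2b, Ighg2c, Ighe, Igha, Jchain or Mzb1, and all 10 genes were found among the 34638 genes listed. All mice were female wild-type C57BL/6 animals, 6 to 8 weeks old per the study's methods. The 3 control mice received phosphate buffered saline, the 3 IL-33 mice received 0.5 µg of recombinant mouse IL-33 into the trachea on each of days 0, 1, 2 and 3, and the 3 IL-33+LM8 mice received the same IL-33 after an intraperitoneal injection of LM8 at 10 mg/kg. Lungs of the IL-33 model were collected on day 4, and sex, age and collection day of the IL-33+LM8 mice are taken to be the same, since the methods describe only the other groups. LM8 is named as an inhibitor of MyD88, the adaptor protein through which the IL-33 receptor signals. No mouse received LM8 without IL-33, so an effect of LM8 on its own was not measured.

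A heavy chain constant region fixes the class of an antibody. Naive B cells transcribe Ighm and Ighd together and display IgM and IgD on their surface, and class switching replaces these by a downstream constant region, which gives IgG, IgE or IgA. Plasmablasts and plasma cells, the secreting stages of the lineage, raise heavy and light chain mRNA strongly, stop making IgD, and express Jchain, which joins IgM into pentamers and IgA into dimers, and Mzb1, an endoplasmic reticulum protein that helps to assemble and secrete antibodies. IgA is the main class secreted onto mucosal surfaces, and in mice IgE and IgG1 are the classes promoted by IL-4. C57BL/6 mice carry Ighg2c in place of the Ighg2a gene of other strains.

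The heavy chain genes lie side by side on the minus strand of chromosome 12, between 113218450 (the end of Igha) and 113386350 (the start of Ighm) in the coordinates of the deposited table. Jchain lies on the minus strand of chromosome 5, from 88667668 to 88675750. The submitters' notes name mm10, but only 578 of 32643 genes shared with the GRCm38 annotation (GENCODE M21) have the same coordinates there, so the sequences below were read from GRCm38 by gene and not by the table's positions. They are the first 60 bases of the first constant region exon and are shown because the 4 IgG genes resemble each other closely enough for a read to fit more than 1 of them. Capitals mark bases that differ from Ighg2b in the IgG genes, and Ighm and Igha, which were not compared in this way, are in lower case. In GRCm38 they lie on the minus strand at chr12:113422671-113422730 (Ighm), chr12:113260177-113260236 (Igha), chr12:113307874-113307933 (Ighg2b), chr12:113288873-113288932 (Ighg2c), chr12:113330464-113330523 (Ighg1) and chr12:113361173-113361232 (Ighg3).
Ighm: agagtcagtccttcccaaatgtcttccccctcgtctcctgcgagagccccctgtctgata
Igha: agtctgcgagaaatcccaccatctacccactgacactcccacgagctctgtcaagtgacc
Ighg2b: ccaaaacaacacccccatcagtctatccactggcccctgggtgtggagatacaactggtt
Ighg2c: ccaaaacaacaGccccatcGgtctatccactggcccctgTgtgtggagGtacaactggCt
Ighg1: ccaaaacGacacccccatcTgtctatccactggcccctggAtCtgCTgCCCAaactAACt
Ighg3: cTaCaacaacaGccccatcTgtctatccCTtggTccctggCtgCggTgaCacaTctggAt

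In these 60 bases Ighg2c differed from Ighg2b at 5 positions, and Ighg1 and Ighg3 each at 13. Over the whole first exon of 291 bases the IgG genes were between 78.4% and 88.3% identical to each other, while Ighm shared between 49.7% and 53.3% of its bases with the other classes. Of the stretches of 31 bases in the annotated transcripts, 15.0% of those of Ighg2c and 9.29% of those of Ighg2b occurred in another gene, most of them in each other. The share was 3.63% for Ighg3, 1.72% for Ighg1 and 0.107% for Ighd, and no stretch of Ighm, Igha, Ighe or Jchain recurred elsewhere. How reads from such stretches were shared out is not known, which leaves the values of Ighg2c and Ighg2b uncertain. For Mzb1 the share was 55.1%, in each case with a transcript that the annotation names SPATA24, like the neighbouring gene. The values of Mzb1 are therefore uncertain as well. Spata24 itself, looked up after these values were seen, was at 4.46 ± 0.478, 4.29 ± 0.851 and 4.64 ± 0.298 FPKM (SD, n = 3 each) in control, IL-33 and IL-33+LM8 lungs. Each heavy chain gene has 2 annotated transcripts, and the counts per gene do not separate the secreted from the membrane form.

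Between 53877663 and 90607218 reads were counted on genes per mouse. Levels are given in FPKM, which divides counts by the length of the gene and the size of the library, and each pair of groups was tested on counts by edgeR. Called genes had an adjusted p (Benjamini-Hochberg, over all genes tested) under 0.05 together with a log2 fold change of 1 or more in either direction. Lung markers were present in every library, with Scgb1a1, a club cell secretory protein, and Sftpc, a surfactant protein of alveolar type 2 cells, each at 4879 FPKM or more. The bulk samples cannot tell a change in the number of B lineage cells from a change in mRNA per cell.

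With IL-33, antibody mRNA rose in most classes, and most of these genes were lower again with LM8. Of the 10 genes, 9 reached a mean of 0.5 FPKM and were tested, and 8 of the 9 were called higher in IL-33 than in control lungs, a comparison in which 10.8% of all genes tested were called higher and 6.24% lower. Between IL-33+LM8 and IL-33 lungs 8 of the 9 were called lower with LM8, beside 3.93% of all genes lower and 1.46% higher. Against control, Ighm and Ighg3 were called higher in IL-33+LM8 lungs and Ighg2c lower, beside 5.87% of all genes higher and 1.46% lower. The groups did not overlap in FPKM for 8, 8 and 5 of the 9 genes in the 3 comparisons, beside 63.4%, 43.2% and 47.3% of all genes. Ighg1 and Ighg3 reached the 0.5 FPKM minimum only through the IL-33 lungs, so their part in these counts follows in part from the filter. The IL-33 mice serve in 2 of the comparisons and so do the control mice, which makes the 3 sets of values dependent on each other.

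**Figure D1:**
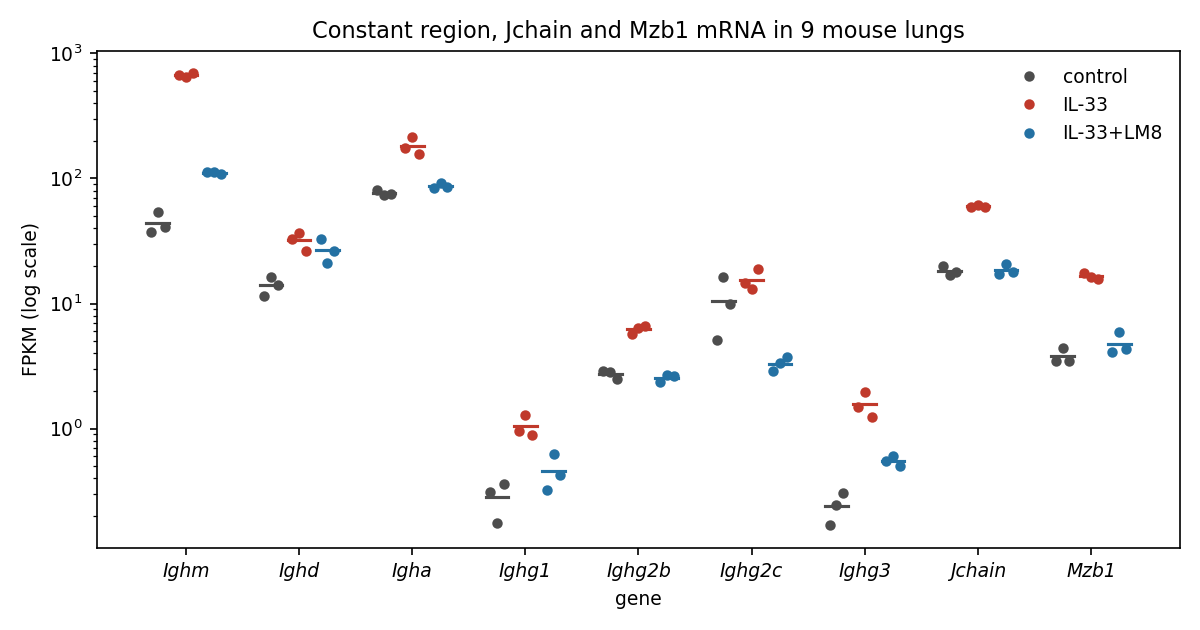
Expression in FPKM (log axis) of the 9 tested genes, with 1 point per mouse and a line at the mean of each group. Ighm in IL-33 lungs lies between 646 and 693 FPKM, above every other gene and group, while Ighd in IL-33+LM8 lungs overlaps with IL-33 lungs and Ighg2c in control lungs spreads from 5.10 to 16.2 FPKM.

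Ighm, the constant region of IgM, had the largest log2 fold change of the members in both comparisons with IL-33 lungs. It was at 37.1, 54.2 and 41.2 FPKM in control replicates 1, 2 and 3, at 667, 646 and 693 FPKM in IL-33 replicates 1, 2 and 3, and at 112, 112 and 108 FPKM in the IL-33+LM8 replicates. The groups were apart in all 3 comparisons, with IL-33+LM8 lungs above control and far below IL-33 lungs. The mean rose 15.1-fold with IL-33, from 44.2 ± 8.95 to 669 ± 23.3 FPKM (SD, n = 3 each), which edgeR put at 3.92 on the log2 scale (standard error 0.15, adjusted p = 2e-06). With LM8 it was 111 ± 2.04 FPKM (SD, n = 3), which gave a log2 fold change of -2.59 against IL-33 (standard error 0.06, adjusted p = 7.9e-06) and of 1.34 against control (standard error 0.13, adjusted p = 0.00048).

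Ighd, the constant region of IgD, is made from the same primary transcript as Ighm by alternative splicing in naive B cells. It was at 11.5, 16.2 and 14.1 FPKM in control, at 33.0, 36.6 and 26.3 FPKM in IL-33 and at 33.0, 21.2 and 26.1 FPKM in IL-33+LM8 lungs. Both groups given IL-33 lay above control and overlapped with each other. With IL-33 the log2 fold change of Ighd was 1.20 (standard error 0.16, adjusted p = 0.00055). It was the one tested member not called lower with LM8 against IL-33, at -0.26 (standard error 0.17, adjusted p = 0.32). Against control it was at 0.95 in IL-33+LM8 lungs (standard error 0.18, adjusted p = 0.0075), under the minimum fold change, and it was called without IL-33+LM8 replicate 2 (1.095) or control replicate 2 (1.08).

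The ratio of Ighm to Ighd FPKM, chosen after the values were seen and given as a description, was between 2.92 and 3.34 in control, between 17.6 and 26.3 in IL-33 and between 3.40 and 5.29 in IL-33+LM8 lungs. The IL-33 lungs thus held 21.4 ± 4.46 times as much Ighm as Ighd per length, against 3.16 ± 0.215 times in control and 4.29 ± 0.949 times with LM8 (SD, n = 3 each).

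Igha, the constant region of IgA, was the most abundant heavy chain in control lungs. It was at 80.5, 73.7 and 75.2 FPKM there, at 176, 216 and 157 FPKM in IL-33 lungs and at 83.2, 91.3 and 85.8 FPKM in IL-33+LM8 lungs. IL-33 lungs were above both other groups, and IL-33+LM8 lungs lay just above control without overlap. The log2 fold change was 1.25 in IL-33 against control (standard error 0.12, adjusted p = 0.0001) and -1.07 for IL-33+LM8 against IL-33 (standard error 0.12, adjusted p = 0.00066). The second call was lost without IL-33 replicate 2, the highest of the IL-33 lungs, where it was -0.94. Against control the IL-33+LM8 lungs differed by 0.20 (standard error 0.07, adjusted p = 0.074), which was not called.

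Jchain, whose product is part of both polymeric IgM and polymeric IgA, was at 20.0, 16.9 and 17.9 FPKM in control, at 58.7, 61.9 and 58.7 FPKM in IL-33 and at 17.3, 20.6 and 17.9 FPKM in IL-33+LM8 lungs. IL-33 lungs stood apart, and the other groups overlapped. Its log2 fold change was 1.71 with IL-33 (standard error 0.07, adjusted p = 3.4e-06), -1.685 in IL-33+LM8 against IL-33 (standard error 0.08, adjusted p = 4.5e-05) and 0.04 in IL-33+LM8 against control (standard error 0.10, adjusted p = 0.81). Mzb1, the assembly factor of the endoplasmic reticulum, was at 3.49, 4.41 and 3.46 FPKM in control, at 17.4, 16.3 and 15.7 FPKM in IL-33 and at 4.06, 5.92 and 4.29 FPKM in IL-33+LM8 lungs, the same arrangement of groups. Its log2 fold change was 2.12 with IL-33 (standard error 0.13, adjusted p = 1.4e-05), -1.79 in IL-33+LM8 against IL-33 (standard error 0.16, adjusted p = 0.00034) and 0.34 in IL-33+LM8 against control (standard error 0.20, adjusted p = 0.25).

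Of the IgG genes, Ighg2b, a subclass that binds activating Fc receptors, was at 2.91, 2.81 and 2.49 FPKM in control, at 5.71, 6.38 and 6.62 FPKM in IL-33 and at 2.37, 2.66 and 2.63 FPKM in IL-33+LM8 lungs. IL-33 lungs were higher than both other groups, which overlapped. Its log2 fold change was 1.19 with IL-33 (standard error 0.12, adjusted p = 0.00013) and -1.29 with LM8 against IL-33 (standard error 0.11, adjusted p = 0.0003).

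Ighg2c, the C57BL/6 counterpart of Ighg2a, was at 5.10, 16.2 and 9.85 FPKM in control, at 14.5, 13.0 and 19.0 FPKM in IL-33 and at 2.87, 3.33 and 3.73 FPKM in IL-33+LM8 lungs. Control and IL-33 lungs overlapped, and the IL-33+LM8 lungs were below both. The log2 fold change with IL-33 was 0.575 (standard error 0.38, adjusted p = 0.24) and was not called, although without control replicate 2, the highest of the controls, it was 1.05 and called. With LM8 it was -2.22 against IL-33 (standard error 0.18, adjusted p = 0.00023) and -1.63 against control (standard error 0.38, adjusted p = 0.017). The last call was lost without IL-33+LM8 replicate 1 (-1.535) or replicate 2 (-1.635). The ratio of Ighg2c to Ighg2b, also chosen after the values were seen, was between 1.76 and 5.78 in control, between 2.04 and 2.87 in IL-33 and between 1.21 and 1.42 in IL-33+LM8 lungs.

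Ighg1 and Ighg3 were scarce. Ighg1, the subclass promoted by IL-4, was counted 53, 30 and 72 times in control, 170, 209 and 129 times in IL-33 and 53, 107 and 105 times in IL-33+LM8 lungs. IL-33 lungs had the most per mouse, and the other groups overlapped in FPKM. It rose from 0.282 ± 0.0954 to 1.04 ± 0.214 FPKM with IL-33 (SD, n = 3 each), which was 1.87 on the log2 scale (standard error 0.32, adjusted p = 0.0022). The log2 fold change of -1.16 in IL-33+LM8 against IL-33 (standard error 0.31, adjusted p = 0.03) lost its call without any 1 of the IL-33 replicates 1 (-1.22), 2 (-0.98) or 3 (-1.26) or the IL-33+LM8 replicates 1 (-0.96) or 3 (-1.10), and it was kept only without IL-33+LM8 replicate 2 (-1.46). Ighg3, a subclass typical of responses to polysaccharides, was counted 28, 41 and 61 times in control, 256, 311 and 175 times in IL-33 and 87, 99 and 120 times in IL-33+LM8 lungs, with no overlap in FPKM between any of the groups. Its log2 fold change was 2.66 with IL-33 (standard error 0.31, adjusted p = 0.00031) and -1.49 for IL-33+LM8 against IL-33 (standard error 0.24, adjusted p = 0.0035). Against control it was 1.19 in IL-33+LM8 lungs (standard error 0.29, adjusted p = 0.022), a call lost without control replicate 1 (0.99) or 2 (1.21) or IL-33+LM8 replicate 2 (1.115) or 3 (1.25).

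Ighe, the constant region of IgE, was close to undetected and was not tested. Its counts were 0, 0 and 4 in control, 2, 8 and 4 in IL-33 and 0, 0 and 0 in IL-33+LM8 lungs. A count of 0 allows up to 3 counts, which is between 0.0331 and 0.0502 CPM, counts scaled to library size, in the IL-33+LM8 libraries. Such limits cover counting error only. No fold is given, since no library held more than 8 counts.

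**Figure D2:**
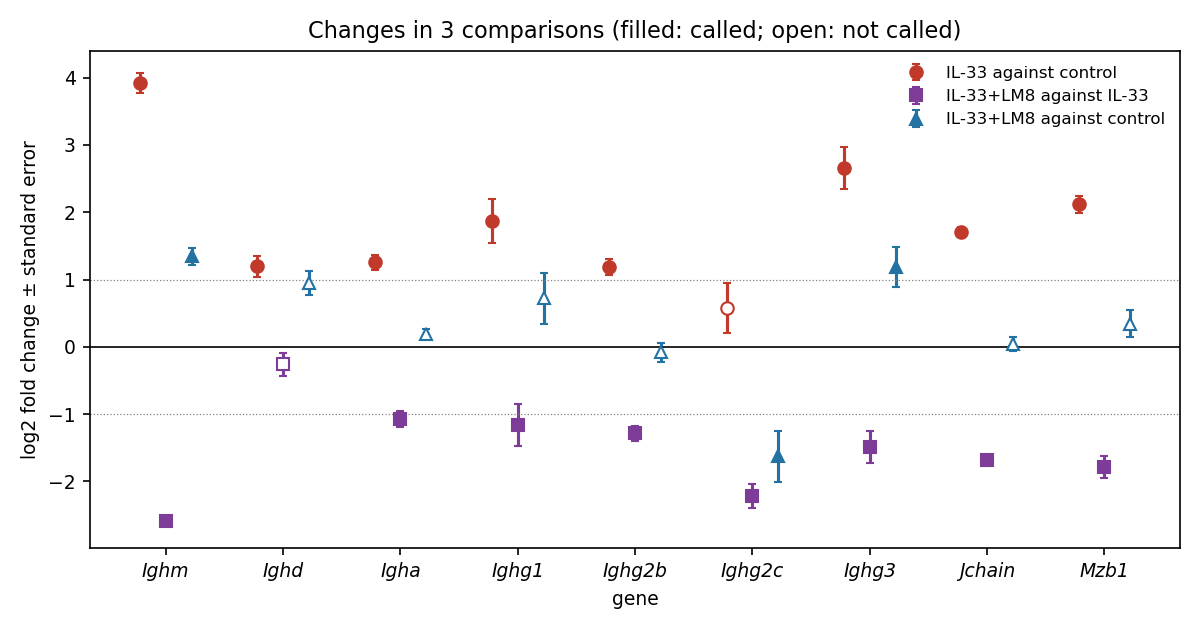
Log2 fold changes with standard errors of the 9 tested genes in the 3 comparisons, with filled symbols for called genes and dotted lines at the minimum fold change. Ighm has the largest values in both comparisons with IL-33 lungs (3.92 and -2.59), and Jchain, Ighg2b and Igha lie near 0 in IL-33+LM8 against control.

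Added up, the 8 heavy chain genes reached 138, 164 and 144 FPKM in control, 898, 921 and 904 FPKM in IL-33 and 234, 232 and 228 FPKM in IL-33+LM8 lungs. Each of the 3 groups was apart from the others. The log2 difference of the sum was 2.62 in IL-33 against control, -1.97 in IL-33+LM8 against IL-33 and 0.65 in IL-33+LM8 against control, each with p = 0.1 in a two-sided exact permutation test, the smallest that 3 mice against 3 allow. Reads counted on these genes made up 0.0351% ± 0.00217 of all counts in control, 0.193% ± 0.00558 in IL-33 and 0.0526% ± 0.000847 in IL-33+LM8 lungs (SD, n = 3 each).

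The make-up of the sum shifted from Igha to Ighm. Ighm took 29.6% ± 3.19 of the summed heavy chain FPKM in control, 73.7% ± 3.29 in IL-33 and 48.0% ± 0.340 in IL-33+LM8 lungs (SD, n = 3 each). Igha took 52.0% ± 6.76, 20.1% ± 3.06 and 37.5% ± 1.96 in the same order. Ighm exceeded Igha in every lung given IL-33, with or without LM8, and in no control lung. The share of Ighd was 9.37% ± 0.882, 3.52% ± 0.548 and 11.6% ± 2.46, and that of the 4 IgG genes together 9.05% ± 2.87, 2.68% ± 0.334 and 2.97% ± 0.319. Although IgG mRNA was higher in IL-33 than in control lungs in level, at 24.3 ± 2.92 against 13.7 ± 5.52 FPKM (SD, n = 3 each), its share of the heavy chains was lower there. The shares of Ighm, Igha, Ighd, Ighg2b and Ighg2c did not overlap between IL-33 and control lungs (p = 0.1 each by a two-sided exact permutation test, adjusted p = 0.16 over the 8 shares), a design in which no share could reach 0.05. Between IL-33+LM8 and IL-33 lungs the shares of Ighm, Igha, Ighd, Ighg2b and Ighg3 did not overlap (exact p = 0.1 each, adjusted p = 0.13). The share of Ighe did not overlap either, with the same values of p, but it rests on counts of 2, 8 and 4 in IL-33 lungs and 0 in each IL-33+LM8 lung.

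**Figure D3:**
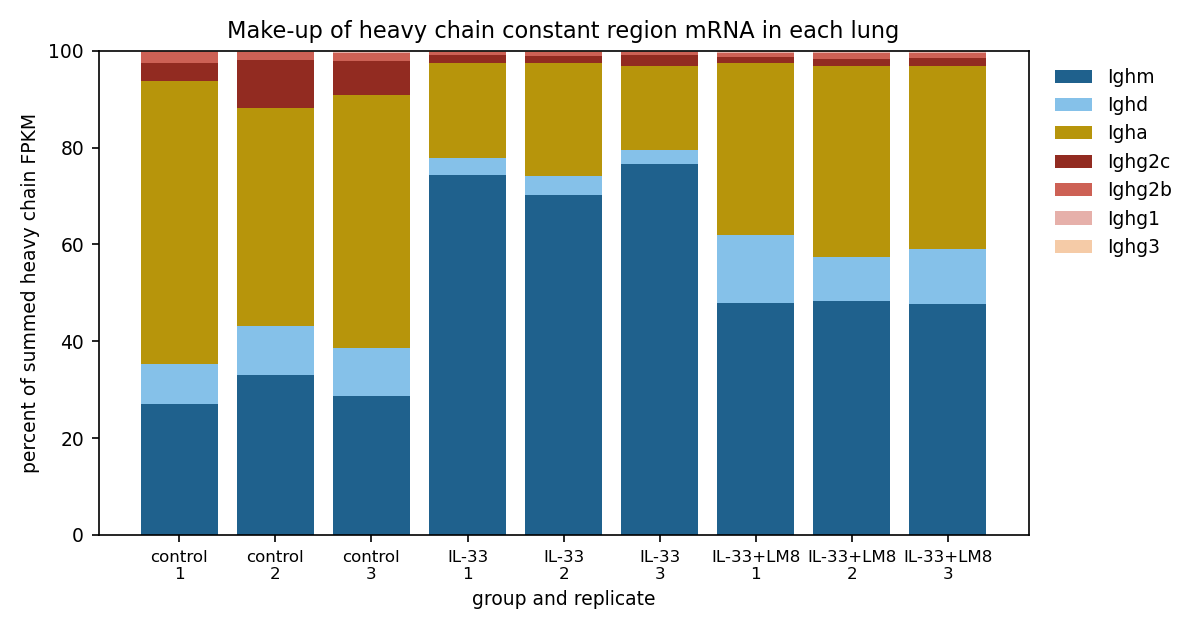
Percent of the summed heavy chain FPKM taken by each constant region in each lung, as stacked bars that add to nearly 100, since Ighe is too scarce to draw. Ighm fills between 70.2% and 76.7% of the bars of IL-33 lungs, between 47.7% and 48.3% with LM8 and between 26.9% and 33.1% in control, and Igha is the largest part only in control lungs.

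In each group the order of levels had neighbours that overlapped. Control lungs ran Igha, Ighm, Jchain, Ighd, Ighg2c, Mzb1, Ighg2b, Ighg1, Ighg3 and Ighe, with overlap between Ighd and Ighg2c and between Ighg1 and Ighg3. IL-33 lungs ran Ighm, Igha, Jchain, Ighd, Mzb1, Ighg2c, Ighg2b, Ighg3, Ighg1 and Ighe, with overlap between Mzb1 and Ighg2c and between Ighg3 and Ighg1. In IL-33+LM8 lungs Ighd moved above Jchain, Mzb1 stood above Ighg2c, and Ighg3 and Ighg1 overlapped.

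Light chain constant regions, which pair with every heavy chain class, were also highest in IL-33 lungs. Igkc, the kappa chain, was at 229, 238 and 219 FPKM in control, at 1173, 1200 and 1321 FPKM in IL-33 and at 296, 338 and 309 FPKM in IL-33+LM8 lungs. Of 5 light chain genes 4 were tested, and all 4 were called higher with IL-33 (median log2 fold change 2.44, against -0.005 over all genes) and lower in IL-33+LM8 against IL-33 (median -1.81, against -0.006 over all genes). Iglc2 (2.46), Iglc3 (2.45) and Igkc (2.43) led the first comparison, and Iglc1 (-2.01), Igkc (-1.97) and Iglc2 (-1.65) the second. Against control, in IL-33+LM8 lungs, Iglc3, a lambda chain, was the 1 called (median 0.65), at 1.34 (standard error 0.23, adjusted p = 0.0048). Igkc made up 89.3% ± 1.73, 89.8% ± 2.79 and 87.9% ± 0.469 of light chain FPKM in control, IL-33 and IL-33+LM8 lungs (SD, n = 3 each), with ranges that overlapped.

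B cell identity genes were mostly higher with IL-33. Of 16 genes 14 were called higher with IL-33 (median log2 fold change 1.83), led by Spib, a B cell transcription factor (2.57, standard error 0.20), Ms4a1, which encodes CD20 (2.47, standard error 0.20), and Blnk, an adaptor of the B cell receptor (2.42, standard error 0.11). With LM8, 2 were called lower than in IL-33 lungs, Blnk (-1.29, standard error 0.08) and Spib (-1.13, standard error 0.11), with a median of -0.82. With no minimum fold change 14 of the 16 were lower at an adjusted p under 0.05, and 15 did not overlap with IL-33 lungs in FPKM. Over all genes tested 4459 of 16831 had such an adjusted p in either direction, and 43.2% did not overlap. The 2 calls became 4 without IL-33 replicate 3. Above control, 9 were called higher with LM8 (median 1.05), led by Ms4a1 (1.63, standard error 0.15), Spib (1.46, standard error 0.20) and Cd79b (1.26, standard error 0.12). The most abundant was Cd79b, a signalling chain of the B cell receptor, at 14.0 ± 2.43, 47.0 ± 4.66 and 33.2 ± 1.92 FPKM in control, IL-33 and IL-33+LM8 lungs (SD, n = 3 each).

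The members were also set against Cd79a, the other signalling chain of that receptor. These ratios were chosen after the values were seen and are descriptions. Ighm to Cd79a was 3.52 ± 0.408 in control, 14.6 ± 2.89 in IL-33 and 4.32 ± 0.406 in IL-33+LM8 lungs (SD, n = 3 each). Jchain to Cd79a was 1.48 ± 0.247, 1.29 ± 0.180 and 0.726 ± 0.122 in the same order, so that control and IL-33 lungs overlapped and IL-33+LM8 lungs were below both. Mzb1 to Cd79a was 0.302 ± 0.0132, 0.357 ± 0.0570 and 0.186 ± 0.0501, with the same overlap. Ighd to Cd79a was 1.12 ± 0.157, 0.682 ± 0.0460 and 1.03 ± 0.151, lowest in the IL-33 lungs.

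**Figure D4:**
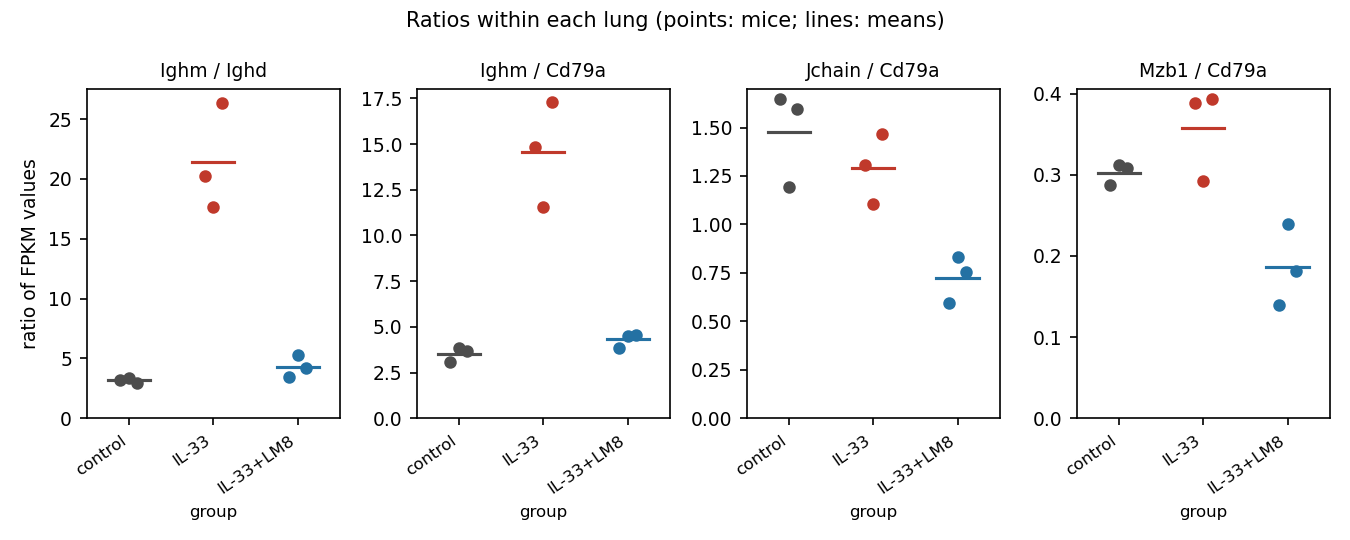
Ratios of FPKM values within each lung, with 1 point per mouse and lines at the group means, on linear axes that start at 0. Ighm against Ighd and against Cd79a stands apart in the IL-33 lungs (means 21.4 and 14.6), and Jchain and Mzb1 against Cd79a are lowest in the IL-33+LM8 lungs (means 0.726 and 0.186).

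Of 10 plasma cell identity genes, all tested, 3 were called higher with IL-33 (median 0.445). Irf4, a transcription factor needed for plasma cells and also used by activated T cells and macrophages, rose by 2.94 (standard error 0.12), Pou2af1, a coactivator of immunoglobulin transcription, by 2.30 (standard error 0.10), and Slamf7, a surface receptor of plasma cells and other leukocytes, by 2.26 (standard error 0.12). Slamf7 (-1.49, standard error 0.20) and Pou2af1 (-1.01, standard error 0.11) were called lower in IL-33+LM8 lungs than in IL-33 lungs (median -0.435), the latter lost without IL-33+LM8 replicate 2 (-0.93) or IL-33 replicate 2 (-0.915). Irf4 (2.21, standard error 0.16) and Pou2af1 (1.31, standard error 0.11) were called higher in IL-33+LM8 against control (median 0.37). Several defining genes were not called in any comparison. Zbtb20 went the other way, at 4.65 ± 0.75, 2.55 ± 0.139 and 3.055 ± 0.561 FPKM in control, IL-33 and IL-33+LM8 lungs (SD, n = 3 each). Tnfrsf17 was scarce, with 15, 18 and 20 counts in control, 70, 35 and 16 in IL-33 and 51, 0 and 42 in IL-33+LM8 lungs. Prdm1, which encodes the plasma cell regulator BLIMP1, was at 2.70 ± 0.331, 3.02 ± 0.144 and 3.09 ± 0.114 FPKM in control, IL-33 and IL-33+LM8 lungs, Sdc1, which encodes CD138 and is also made by epithelium, at 44.2 ± 9.86, 52.3 ± 3.16 and 36.5 ± 6.96 FPKM, and Xbp1, a factor of secretory cells in general and the most abundant on the list, at 70.3 ± 7.81, 83.6 ± 6.94 and 93.9 ± 15.0 FPKM (SD, n = 3 each).

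Of 12 genes of the secretory apparatus, all tested, 6 were called higher in IL-33 against control (median 0.92), led by Derl3 (2.48, standard error 0.24) and Sec11c (1.27, standard error 0.065), which act in degradation and signal peptide removal at the endoplasmic reticulum, and Fkbp11 (1.20, standard error 0.19), a folding enzyme of secretory cells. None of the 12 was called between IL-33+LM8 and IL-33 lungs by edgeR or by DESeq2 (median -0.13), and 3 had an unadjusted p under 0.05 in edgeR, the same number as for the adjusted p with no minimum fold change. Of all genes tested 4459 of 16831 had an adjusted p under 0.05 in this comparison. Derl3 (2.16, standard error 0.39) and Fkbp11 (1.25, standard error 0.20) were called higher in IL-33+LM8 against control (median 0.65), and the 2 calls became 4 without IL-33+LM8 replicate 1. Derl3 was at 0.693, 1.21 and 1.08 FPKM in control, at 5.86, 6.45 and 4.60 FPKM in IL-33 and at 2.56, 6.88 and 3.96 FPKM in IL-33+LM8 lungs, so that its IL-33+LM8 values spread across the IL-33 range. Hsp90b1, an abundant chaperone of many cell types, was at 245 ± 2.17, 317 ± 13.1 and 318 ± 53.3 FPKM (SD, n = 3 each).

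Among 14 genes of germinal centres and class switching 10 were tested, and 3 were called higher with IL-33 (median 0.52), namely Ung, which processes the deaminated bases of switch regions and is also a general repair enzyme (3.33, standard error 0.24), Tgfb1, a cytokine that promotes switching to IgA (1.29, standard error 0.12), and Batf, a transcription factor of switching B cells and of T cells (1.19, standard error 0.10). Ung was the only one called lower in IL-33+LM8 against IL-33, at -1.155 (standard error 0.29, median of the list -0.20), and the call was lost without IL-33+LM8 replicate 1 (-0.90), without replicate 1 (-1.03) or 3 (-1.09) of the IL-33 mice, and with a replicate block (-1.19). Ung (2.19, standard error 0.32) and Batf were called higher in IL-33+LM8 against control (median 0.30), Batf at 1.105 (standard error 0.16) and lost without IL-33+LM8 replicate 2 (0.93). Ung averaged 0.138 FPKM in control lungs (n = 3) and reached the 0.5 FPKM minimum only through the groups given IL-33. Its calls against control thus follow in part from the filter. Fas, the most abundant on this list, was at 32.5 ± 1.51, 20.97 ± 1.53 and 31.9 ± 1.75 FPKM (SD, n = 3 each) and was not called.

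Of 7 genes listed with IgE and IgG1 transcription, all tested, 2 were called higher with IL-33 (median 0.49). The list does not separate genes that promote this transcription from genes that restrain it. Il13, a cytokine of type 2 responses, was counted 0, 4 and 0 times in control, 185, 181 and 204 times in IL-33 and 79, 261 and 161 times in IL-33+LM8 lungs. It reached the 0.5 FPKM minimum only through the groups given IL-33, and no fold is given for it because control lungs were at or near the limit of 3 counts. Id2, an inhibitor of E proteins, was higher by 1.304 (standard error 0.08). Il4 itself was at 0.701 ± 0.181, 0.991 ± 0.201 and 0.502 ± 0.0414 FPKM and was not called in any comparison. None was called by edgeR or DESeq2 between IL-33+LM8 and IL-33 lungs (median -0.32), where in edgeR 5 had an unadjusted and 4 an adjusted p under 0.05. Of all genes tested 4459 of 16831 had such an adjusted p. The number of these listed genes called became 1 without IL-33 replicate 1 or IL-33+LM8 replicate 2. Against control, IL-33+LM8 lungs had 1 call, Il13, and a list median of 0.39. Stat6, the signalling factor of IL-4 and the most abundant of them, was at 42.5 ± 0.540, 37.9 ± 0.903 and 41.3 ± 1.57 FPKM (SD, n = 3 each).

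Factors and receptors that sustain plasma cells were called higher with IL-33 in 6 of 11 tested (median 1.05), led by Il5 (5.58, standard error 0.59) and Il6 (4.15, standard error 0.26), cytokines that promote antibody secretion, and Il5ra, the IL-5 receptor of B-1 cells and eosinophils (2.15, standard error 0.42). These 3 averaged less than 0.5 FPKM in control lungs and reached that minimum only through the groups given IL-33. Their calls against control thus follow in part from the filter. Il5 was counted 4, 18 and 4 times in control lungs, near the limit of 3 counts, so the size of its changes against control is uncertain. With LM8, Il5ra (-1.54, standard error 0.22), Tnfrsf13c, the BAFF receptor of mature B cells (-1.25, standard error 0.23), and Il6 (-1.22, standard error 0.24) were called lower than with IL-33 alone (median -0.645), the second lost without IL-33 replicate 2 (-0.99). Tnfsf13b, which encodes BAFF, was called higher in both groups given IL-33, at 4.04 ± 0.193, 8.38 ± 0.429 and 10.7 ± 2.34 FPKM in control, IL-33 and IL-33+LM8 lungs, and 4 of the 11 were called higher in IL-33+LM8 against control (median 0.625), led by Il5 (4.73), Il6 (2.95) and Tnfsf13b (1.415). Cxcr4, a homing receptor of plasma cells and other leukocytes and the most abundant of these genes, was at 27.9 ± 0.915, 46.9 ± 0.922 and 30.0 ± 3.10 FPKM (SD, n = 3 each) and was not called. Some genes on the list had lower means with IL-33, although none was called lower. Il6ra, the receptor of IL-6, was at 10.3 ± 0.636, 5.87 ± 0.323 and 10.4 ± 1.18 FPKM in the same order. Tnfsf13, another survival factor, was at 10.2 ± 0.369, 8.98 ± 0.574 and 12.4 ± 2.14 FPKM (SD, n = 3 each).

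On the list of Fc receptors and antibody transport 7 of 10 tested genes were called higher with IL-33 (median 1.69), led by the IgG receptors Fcgr2b (3.09, standard error 0.07) and Fcgr3 (2.71, standard error 0.05), which myeloid cells express too, and by Lgals3, an abundant IgE-binding lectin of macrophages (2.63, standard error 0.06). Pigr, the epithelial receptor that carries polymeric IgA and IgM into secretions, was highest in the lungs given LM8. It was at 20.95 ± 1.97, 69.4 ± 0.336 and 94.2 ± 11.4 FPKM in control, IL-33 and IL-33+LM8 lungs (SD, n = 3 each), and its log2 fold change was 1.73 with IL-33 (standard error 0.07), 0.44 in IL-33+LM8 against IL-33, which was not called (standard error 0.09, adjusted p = 0.011), and 2.185 in IL-33+LM8 against control (standard error 0.11), the largest of the 8 called higher there, ahead of Fcgr2b (1.97) and Fcgr3 (1.835) (median 1.37). Lower in IL-33+LM8 than in IL-33 lungs were Lgals3 (-1.40, standard error 0.10) and Fcgr2b (-1.14, standard error 0.09), both called (median -0.19).

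Genes of B-1 and innate-like B cells were called higher with IL-33 in 3 of 6 (median 1.37), Ptpn22 (2.63, standard error 0.08), a phosphatase also found in T cells, Siglecg (2.11, standard error 0.15), a lectin of B cells, and Zbtb32 (1.84, standard error 0.24), a transcription factor of innate-like lymphocytes. Between IL-33+LM8 and IL-33 lungs Siglecg (-1.13, standard error 0.14) and Ptpn22 (-1.04, standard error 0.08) were called lower (median -0.50), the latter lost without IL-33+LM8 replicate 1 (-0.999) or IL-33 replicate 1 (-0.988). Ptpn22 and Zbtb32 were called higher in IL-33+LM8 against control (1.61 and 1.33, median 0.88). Plscr1, the most abundant, was at 15.6 ± 1.20, 16.5 ± 0.643 and 20.8 ± 0.948 FPKM (SD, n = 3 each). On a list of surrogate light chain and pre-B genes, 1 of 3 with values, Vpreb3, was tested. It was called lower with IL-33 (-1.13, standard error 0.12), at 17.3 ± 1.76 FPKM in control against 7.91 ± 0.678 FPKM (SD, n = 3 each). The surrogate light chain genes Igll1 and Vpreb1 stayed below 0.5 FPKM in every group. Whether the fall of Vpreb3 has to do with developing B cells was not tested.

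Markers of other cells differed between the groups as well, and their part in the antibody values was not tested. All 8 genes of dividing cells were called higher with IL-33 (median 3.05), lower in IL-33+LM8 against IL-33 (median -1.25) and higher in IL-33+LM8 against control (median 1.81), and the 8 called lower became 5 without IL-33+LM8 replicate 1. Their summed FPKM was between 9.38 and 14.7 in control, between 87.9 and 102 in IL-33 and between 35.7 and 45.4 in IL-33+LM8 lungs. None of 8 T cell genes was called in any comparison by edgeR or DESeq2 (medians 0.47, -0.14 and 0.33). In edgeR 5, 2 and 3 of them had an unadjusted and 5, 1 and 2 an adjusted p under 0.05. Over all genes tested 9193 of 16831, 4459 of 16831 and 4997 of 16829 had such an adjusted p. In IL-33 against control 1 T cell gene was called without IL-33 replicate 2, control replicate 2 or control replicate 3. Among 7 genes of group 2 innate lymphoid cells 6, 4 and 5 were called, with summed FPKM from 13.0 to 14.2, from 75.6 to 92.7 and from 34.96 to 38.5 in control, IL-33 and IL-33+LM8 lungs. The eosinophil sum ran from 84.2 to 92.2, from 577 to 632 and from 138 to 172, and that of macrophages and monocytes from 264 to 299, from 4388 to 4997 and from 1951 to 2287. Each of these sums came mostly from 1 gene. In IL-33 lungs Ear2 was at 537, 589 and 532 FPKM, and Chil3 was at 4354, 4648 and 4059 FPKM. The neutrophil sum ran from 26.3 to 32.9, from 188 to 211 and from 871 to 1019. Of 7 neutrophil genes 7 were called higher with IL-33, 5 higher in IL-33+LM8 against IL-33 and 7 higher against control. Of 6 eosinophil genes tested 6 were called higher, 6 lower and 3 higher in the same order, and of 7 macrophage genes 5 higher and 1 lower, then 1 higher and 3 lower, then 5 higher. Siglecf, an eosinophil list gene not called against control with LM8, was at 3.44, 3.28 and 3.50 FPKM in control and 2.12, 1.84 and 1.83 FPKM in IL-33+LM8 lungs. Marco, the macrophage gene called lower with IL-33, was at 6.72, 8.99 and 6.52 FPKM in control and 1.91, 2.86 and 2.42 FPKM in IL-33 lungs. Ear6, Ccr3, Prg2, Il5ra, Ly6g, Il9r and Cenpf, all on these lists, averaged less than 0.5 FPKM in control lungs. They reached that minimum only through the groups given IL-33, so their part in the counts against control follows in part from the filter. The 3 eosinophil genes called against control became 1 without IL-33+LM8 replicate 2, when Ear6 and Ccr3 were lost, and 2 without IL-33+LM8 replicate 1 or control replicate 2 and by DESeq2, when Ear6 was lost.

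Red blood cell mRNA was lowest in the IL-33 lungs, where antibody mRNA was highest, and its part in the antibody values was not tested either. The 5 genes summed to between 7847 and 9293 FPKM in control, between 2539 and 3188 FPKM in IL-33 and between 10885 and 12337 FPKM in IL-33+LM8 lungs, with all 5 called lower with IL-33 and all 5 called higher again with LM8. The sum over 8 lung tissue genes was between 34208 and 37056, between 15611 and 16794 and between 28948 and 31357 FPKM in the same order, with Scgb1a1 and Sftpc called lower with IL-33 and none called in the comparisons with LM8 by edgeR or DESeq2, where in edgeR 7 of 8 against IL-33 and 4 of 8 against control had an unadjusted p under 0.05. An adjusted p under 0.05 was reached by 7 and 3 of the 8, beside 4459 of 16831 and 4997 of 16829 genes in all. Against IL-33, 1 was called without IL-33 replicate 2 or IL-33+LM8 replicate 3. Among genes of lymph node stroma and thymus 3 were tested, with 1, 1 and 2 called higher in the 3 comparisons. The call in IL-33+LM8 against IL-33 was Ccl19, a chemokine of lymph node stroma (1.25, standard error 0.38), and it was lost without IL-33 replicate 1 (0.96) or 2 (1.20) or IL-33+LM8 replicate 1 (1.28), 2 (1.23) or 3 (1.26) and with a replicate block (1.355). Its call against control (1.303, standard error 0.335) was lost without control replicate 1 (1.15) or 3 (1.13) or IL-33+LM8 replicate 2 (1.29) or 3 (1.298). Cxcl13, a chemokine that draws B cells into follicles, was at 1.93 ± 0.126 FPKM in control, 30.9 ± 6.49 FPKM in IL-33 and 14.5 ± 8.995 FPKM in IL-33+LM8 lungs (SD, n = 3 each), called higher in both groups given IL-33 and not called between them (-1.09, standard error 0.45). Glycam1, a product of lymph node high endothelial venules, was at 0 in every control lung and at most 0.0545 FPKM elsewhere. Rag1, expressed by developing lymphocytes, stayed under 0.37 FPKM in every lung. Its counts were 159, 4 and 122 in control replicates 1, 2 and 3 and at most 8 in any lung given IL-33. Dntt, on the same list, was counted 68, 32 and 92 times in control, 20, 34 and 13 times in IL-33 and 13, 66 and 46 times in IL-33+LM8 lungs. What these counts mean for the control values was not tested.

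Across the 9 lungs the members moved together to different degrees, as Pearson correlations of log2(FPKM + 1) describe. These points share their libraries and fall into 3 groups, so no p is given. The correlation was 0.98 between Jchain and Mzb1, 0.98 between Jchain and Igha, 0.99 between Jchain and Ighg2b and 0.93 between Jchain and Ighm. Ighd correlated at 0.82 with Ighm, at 0.59 with Jchain and at 0.06 with Ighg2c, the lowest of all pairs. Outside the members and the variable segments, the genes most like Ighm were Cdk2, a kinase of the cell cycle, Myo5a, a motor protein, and H2-Aa, a chain of MHC class II, each at 0.996 to 0.997. The ones most like Ighd were Btla, an inhibitory receptor of lymphocytes, Cxcr5, which guides B cells to follicles, and Dnase1l3, a secreted DNase, at 0.974 to 0.979. The genes most like Jchain were Igf1, Col1a2 and Wdr62 (0.995 to 0.997), and those most like Mzb1 were Mmp19, Col24a1 and Atp6v0d2 (0.9925 to 0.995). For Igha they were Gm43351, Lhfpl2 and Mmp23 (0.989 to 0.992), for Ighg2b G2e3, Rhno1 and Igf1 (0.988 to 0.9895), for Ighg3 Brca2, Iglc2 and Tnfrsf13c (0.986 to 0.996), for Ighg1 Slco4a1, Bora and Rgs5 (0.975 to 0.988), and for Ighg2c Endod1, Acss1 and Cntln (0.9535 to 0.958).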

How the data were processed

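Lung RNA of 9 mice was sequenced with paired-end reads (NovaSeq, Illumina). The authors deposited 1 table with read counts and FPKM per gene and mouse, made by a sequencing company. The submitters' notes list HISAT2 2.0, StringTie 1.3.0, Bowtie 0.12.2 and mm10 without saying which step used which, and whether counting used strand or how it treated reads that match several genes is not given in the sources used here. Groups were taken from the labels. The labels do not describe litters or cages, so the tests treat the mice as independent, and effects of a shared litter or cage are not covered.

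Counts were tested with edgeR 4.0.16 (R 4.3.3, TMM normalization, quasi-likelihood test), with 6 mice in each fit and with genes that averaged 0.5 FPKM or more across 9 mice and had a count above 0 in the 6. This left 16831, 16831 and 16829 genes. The standard error is the log2 fold change divided by the square root of F. Sums and shares of FPKM were tested by exact permutation. Folds of means divide mean FPKM values, with nothing added to them. In simulated data 200 genes were changed, of which edgeR called 181, 183 and 194 in the 3 comparisons, with 12, 9 and 14 false calls. The changed genes were not scarce, and each was shifted by more than the minimum fold change. Recovery of changes near that minimum or at low counts was therefore not measured. Within groups, pairs of libraries had a chi-square of 24.1 or more per degree of freedom, and no library was a copy.

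The genes and the 19 other lists (160 genes, 158 in the table) were chosen with earlier results of these data known, and list calls are counts and not tests. Named are all members, up to 3 called genes of each antibody-related list with the largest change, its most abundant gene, and the 3 genes most like a member, with lists of other cells given by counts and summed FPKM. Xbp1, Prdm1, Sdc1, Il4, Igll1, Vpreb1, Cd79a ratios, Pigr with IL-33, Tnfsf13b with IL-33, Derl3 per mouse, Cxcl13, Glycam1, Rag1, Scgb1a1, Sftpc and Spata24 were described for their role or after their values were seen. So were Il6ra, Tnfsf13, Zbtb20, Tnfrsf17, Dntt, Ear2, Chil3, Siglecf, Marco and the genes of other cells that are named for the filter.

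Alternatives were median-of-ratios factors, DESeq2 1.42.0, limma 3.58.1 on log2(FPKM + 1) and log2(FPKM + 0.1), filterByExpr, no filter, a fit of all 9 mice, library sizes without immunoglobulin reads, no minimum fold change, leaving out each mouse, and a block for the replicate number. The block was tried because the titles share replicate numbers. Deviations from the group mean correlated at -0.42, 0.28 and -0.28 for the same number in control and IL-33 mice and at -0.38, 0.22 and -0.40 in IL-33 and IL-33+LM8 mice, so the numbers do not pair these mice. In control and IL-33+LM8 mice they were 0.31, 0.32 and 0.67, which passes the rule for pairing, although the labels name no shared litter, batch or day. A result on 1 further gene is not reported here.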

Additional observations from a re-analysis of the deposited data

How the results depend on the processing

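The count of called members stayed within 1.5 times under each alternative run. In IL-33 against control it was between 6 (limma on log2(FPKM + 1)) and 9 (without control replicate 2), and it was between 6 and 8 for IL-33+LM8 against IL-33 and between 2 and 4 for IL-33+LM8 against control. Of the members' log2 fold changes under an alternative 406 kept both sign and call, 20 were no longer called, 4 became called and 2 changed sign. Both reversals were Jchain in IL-33+LM8 against control, at -0.044 without IL-33+LM8 replicate 2 and -0.007 without control replicate 2, within a range up to 0.117 with each mouse left out, and it was not called in any of these. With a replicate block 8, 8 and 3 members were called and the sums of heavy chain FPKM had an exact p of 0.25, the smallest that 3 pairs allow, with log2 differences of 2.62, -1.97 and 0.65, and the block changed no member's call. The list genes called numbered 48 in IL-33+LM8 against IL-33 and 61 in IL-33+LM8 against control and became 99 and 102 with no minimum fold change. Over all genes tested the calls went from 907 and 1233 to 4459 and 4997 in the same way. The share difference of Ighd in IL-33 against control was -5.85 percentage points from FPKM and -4.58 from summed counts, which are not scaled by length. Limma on log2(FPKM + 1) called 1741, 439 and 588 of all genes, against 2865, 907 and 1233 by edgeR, and lost Ighg1 (0.67) and Ighg2b (0.95) in IL-33 against control, Ighg1 (-0.48) and Ighg3 (-0.71) in IL-33+LM8 against IL-33 and Ighg3 (0.32) in IL-33+LM8 against control. By the same method the calls for B cell identity against control with LM8 went from 9 to 3, and those for survival factors in IL-33+LM8 against IL-33 from 3 to 0. With 3 mice per group exact tests stop at 0.1, and depth limits Ighe and Ighg1.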
